A study of Mus musculus with 18 samples.

Results

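RAW264.7 macrophages carrying a control guide RNA were compared after 48 h under 2 opposite stimuli, and 6 of the 18 libraries of the series hold that comparison. The 3 M1 libraries come from cells given 2 ng/ml mouse interferon-γ and 0.1 µg/ml lipopolysaccharide (LPS), and the 3 M2 libraries from cells given 20 ng/ml each of the mouse cytokines IL-13, IL-10 and IL-4 plus 2 ng/ml human TGF-β1. The members are defined by label alone, control gRNA M1 against control gRNA M2, although earlier results of these data were known when they were chosen. RAW264.7 is a transformed mouse macrophage-like line, both groups are labelled wild type, and both went through the CRISPR/Cas9 guide step that also produced a Kdm7a-deficient line. Beside them stand 3 unstimulated libraries of the same control cells (M0, 48 h), 3 M1 and 3 M2 libraries of Kdm7a knockout cells, and 3 unstimulated knockout libraries that entered the fit only. The labels do not say whether the libraries of a group came from separate cultures or whether the knockout is a single clone. The p-values below therefore measure library-to-library spread, which may be purely technical.

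Interferon-γ acts through JAK kinases to switch on antigen presentation and cell-autonomous defence genes, and LPS acts through TLR4 to activate NF-κB, IRF3 and a wave of cytokines, including type I interferon that acts back on the cells. IL-4 and IL-13 act through STAT6 and drive genes of arginine use and tissue repair in mouse macrophages. IL-10 acts through STAT3, and TGF-β1 through SMAD proteins. M1 and M2 are names for the states these stimuli produce in culture.

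Poly(A) RNA was sequenced, and the deposited values are TPM, a transcript level per unit of length that sums to the same total in every library. Of 24411 symbols in the table, 7246 were at 0 in every library and 11548 reached 1 TPM in at least 3 libraries and were tested. Sequencing depth is unknown from TPM. On the log2(TPM + 1) scale the M1 libraries correlated with each other at 0.996 to 0.997 across genes and the M2 libraries at 0.996, against 0.739 to 0.753 between an M1 and an M2 library. The guide's target Kdm7a stood at 7.66, 7.63 and 7.19 TPM in the knockout M1 libraries, against 5.83, 7.54 and 7.04 TPM in the knockout M2 libraries, and in control cells at 30.3, 29.96 and 28.7 TPM in the M1 libraries, against 24.5, 23.3 and 22.2 TPM in the M2 libraries. Transcripts of the M1 state were highest in M2 replicate 2 among the M2 libraries. The 30 genes at 100 TPM or more in M1 cells and under 0.5 TPM in M0 cells were used for this. Their median level in M2 replicate 2 was 0.147% of the M1 level, against 0.0688% in M2 replicate 1 and 0.0108% in M2 replicate 3. It was 0.0174 to 0.0413% in the M0 libraries, where the choice of genes itself keeps the level low, so M0 is no reference here. The order of the M2 replicates recurs in some M2 values below and not in others. For Il6, Csf3 and Lcn2 M2 replicate 1 was the highest. The part of this order in the M2 values was not tested.

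Nearly the whole measured transcriptome differed between the states. At a Benjamini-Hochberg adjusted p below 0.05 in limma over all tested genes, 10320 genes were called, 89.4% of those tested. Of these, 3502 were higher in M1 cells, a background of 30.3%, and 6818 were lower, a background of 59.0%. With differences of at least 2-fold required, 4981 genes were called (43.1%), 1465 of them higher in M1 cells (12.7%) and 3516 lower (30.4%). The libraries of the 2 groups did not overlap for 10428 genes, 90.3% of those tested. All fold changes are M1 minus M2 in log2(TPM + 1) units, and the added 1 TPM shrinks differences of genes at low levels.

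The rises were fewer and steeper. Differences of 4 log2 units or more were found in 189 genes that were higher and in 175 that were lower in M1 cells, differences of 6 or more in 80 and 14, and differences of 8 or more in 27 genes and 1 gene, Arg1. The genes that were at least 2-fold higher in M1 cells held 41.0% of all TPM in M1 cells, 6.58% in M2 cells and 6.71% in M0 cells. The genes that were at least 2-fold lower held 13.1% in M1 cells, 42.6% in M2 cells and 44.3% in M0 cells. The top 10 genes by level summed to 10.9% of TPM in M1 cells and 6.71% in M2 cells.

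**Figure D1:**
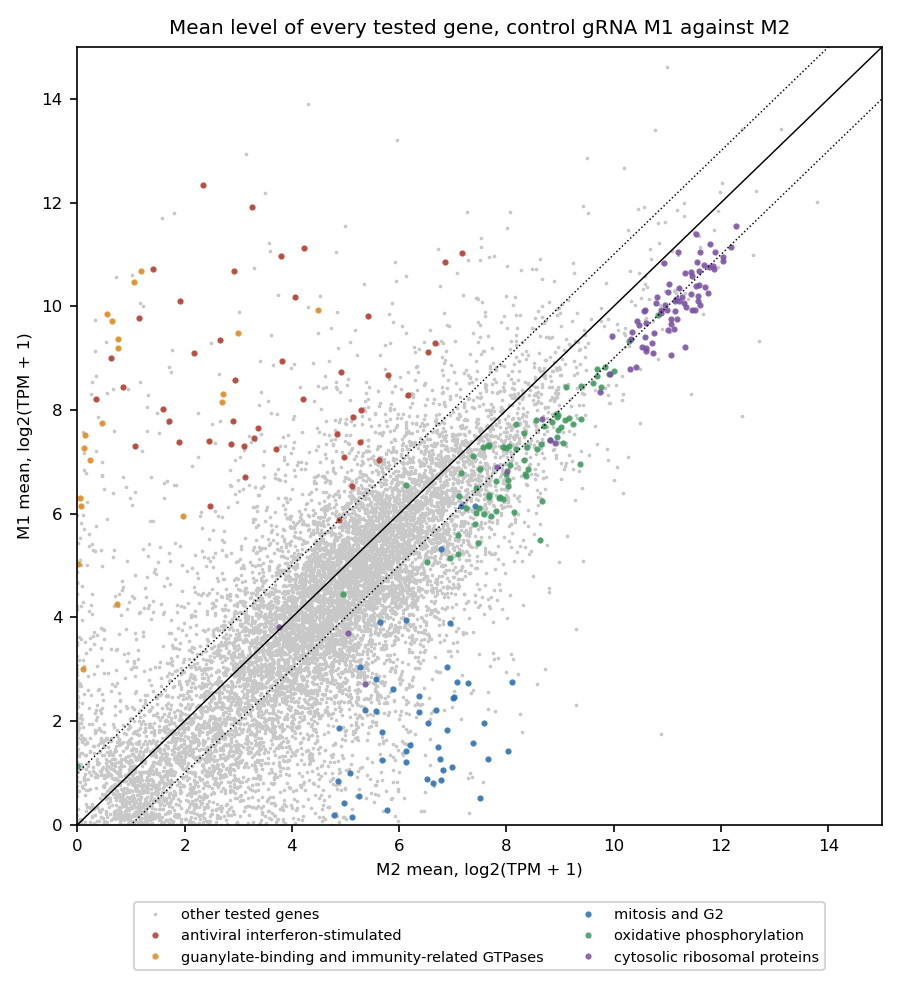
Mean level of each tested gene, with M2 cells on the horizontal axis and M1 cells on the vertical axis, both log2(TPM + 1), n = 3 libraries a group. The solid line marks equal levels and the dotted lines 2-fold differences. Interferon-stimulated and guanylate-binding genes lie above the upper dotted line, mitosis genes below the lower one, and genes of oxidative phosphorylation and ribosomal proteins along the lower one.

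Because TPM sums to a fixed total, the choice of scaling moved the fold changes by a nearly common amount. The median log2 difference of all tested genes was −0.42 as deposited, −0.01 with TMM factors computed on the TPM values and −0.02 with median-ratio factors. Under TMM factors 5133 genes were called higher (44.4%) and 5139 lower (44.5%), and by at least 2-fold 2285 (19.8%) and 2372 (20.5%), together 40.3%. Median-ratio factors gave 5092 higher (44.1%) and 5172 lower (44.8%), and by at least 2-fold 2257 (19.5%) and 2390 (20.7%), together 40.2%. The share of called genes that were higher in M1 cells was 33.93% as deposited, 49.97% with TMM factors and 49.61% with median-ratio factors. A gene or list whose difference is smaller than this shift can therefore have either sign. List counts of at least 2-fold are to be read against 12.7% higher and 30.4% lower as deposited. Under TMM factors they are to be read against 19.8% higher and 20.5% lower.

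**Figure D2:**
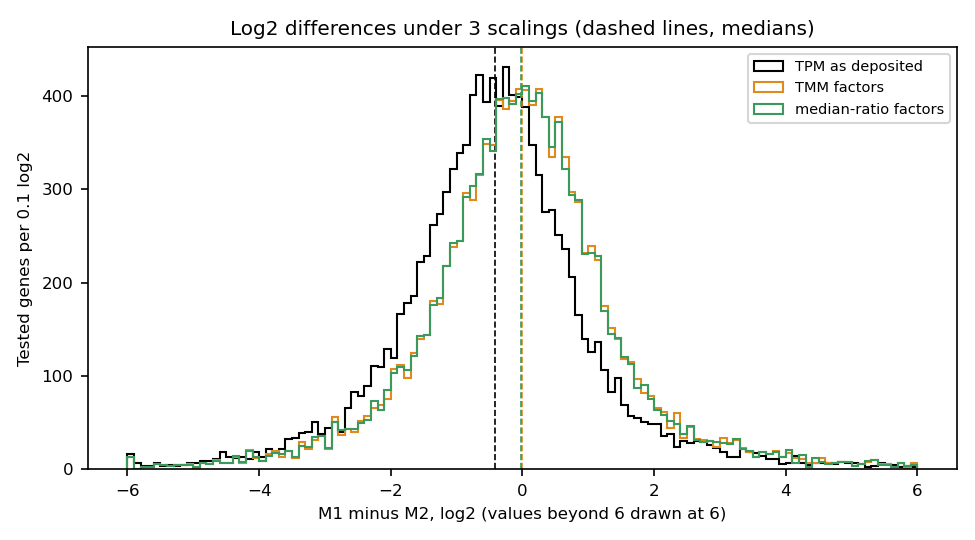
Number of tested genes (vertical axis, per 0.1 log2) at each M1 minus M2 log2 difference (horizontal axis) under TPM as deposited, TMM factors and median-ratio factors. Dashed lines mark the medians of −0.42, −0.01 and −0.02, so the whole distribution moves to the right under both rescalings.

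The defining genes followed the labels, with exceptions on the M2 side. Nos2, the inducible nitric oxide synthase (chr11:78920787-78960226 in RefSeq GRCm38.p6), stood at 3625, 3577 and 3515 TPM in the M1 libraries, against 2.04, 5.24 and 0.23 TPM in the M2 libraries. The log2 difference was 10.29 ± 0.41 (limma, adjusted p = 1.82e-11), 10.85 without M2 replicate 2 and 9.68 without M2 replicate 3. Arg1, arginase 1, which competes for the same substrate (chr10:24915207-24927470), stood at 0.71, 3.06 and 3.35 TPM in the M1 libraries, against 1831, 1941 and 1857 TPM in the M2 libraries. The log2 difference was −9.24 ± 0.53 (adjusted p = 1.16e-09). Neither gene overlapped between the groups, as for 90.3% of all tested genes, and the rule for the largest rises and falls required it. Both were near 0 in unstimulated cells. In the unstimulated libraries Nos2 stood at 0.36, 0.33 and 0.6 TPM and Arg1 at 0.34, 0 and 0.07 TPM.

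Of 33 tested genes of a list of M1-associated genes, 31 were at least 2-fold higher in M1 cells and 0 were lower by that much, with a median log2 difference of 5.12. Summed over the list, M1 cells held 55059 ± 299.6 TPM, M2 cells 969 ± 45.6 TPM and M0 cells 1298 ± 25.1 TPM (SD, n = 3 each). Ptgs2, the inducible cyclooxygenase, stood at 8019.9, 7903 and 7748 TPM in the M1 libraries, against 6.62, 15.9 and 1.08 TPM in the M2 libraries (log2 difference 10.26 ± 0.57, 10.95 without M2 replicate 2 and 9.44 without M2 replicate 3). Il6 stood at 1596, 1570 and 1484 TPM in the M1 libraries, against 1.56, 1.46 and 0.09 TPM in the M2 libraries (log2 difference 9.67 ± 0.26). Tnf stood at 2174, 2118 and 2150.2 TPM in the M1 libraries, against 10.6, 12.3 and 10.2 TPM in the M2 libraries, and at 73.8, 75.2 and 72.2 TPM in the unstimulated libraries. For Tnf, M2 cells were thus below unstimulated cells and M1 cells above both, with a log2 difference of 7.49 ± 0.06 between M1 and M2 cells (adjusted p = 9.43e-26). Il12b, the p40 subunit of IL-12 and IL-23, stood at 7.25, 10.3 and 8.16 TPM in the M1 libraries, against 0 TPM in all 3 M2 libraries. Acod1, listed in the table as Irg1, makes itaconate and averaged 4668 ± 38.2 TPM in M1 cells and 10.3 ± 4.39 TPM in M2 cells (SD, n = 3 each). Irf5 was the member nearest to equal levels, at 248 ± 3.03 TPM in M1 cells and 207 ± 3.98 TPM in M2 cells, a log2 difference of 0.26 with a 95% interval of 0.20 to 0.33, and 0.73 under TMM factors.

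The list of M2-associated genes split. Of 25 tested members 16 were at least 2-fold lower in M1 cells and 7 at least 2-fold higher, with a median log2 difference of −1.39. Beside Arg1 the lower ones held Irf4, a transcription factor of alternative activation, at 0.51, 0.66 and 0.66 TPM in the M1 libraries, against 38.6, 36.5 and 36.9 TPM in the M2 libraries (log2 difference −4.57 ± 0.09). Pdcd1lg2, which encodes the checkpoint ligand PD-L2, stood at 0.11, 0.12 and 0.15 TPM in the M1 libraries, against 19.5, 15.7 and 17.2 TPM in the M2 libraries. Klf4 averaged 4.92 ± 0.538 TPM in M1 cells and 199.7 ± 3.29 TPM in M2 cells. Mrc1, the mannose receptor, was low throughout at 0.39, 0.47 and 0.32 TPM in the M1 libraries, against 1.75, 1.63 and 1.70 TPM in the M2 libraries (log2 difference −0.95 ± 0.08). Further textbook markers were at or near 0. Chil3 and Retnla were at 0 TPM in all 9 control libraries, Ccl17 was at 0 TPM in all 6 polarized libraries and Ccl24 reached 0.08 TPM in 1 M2 library. Several listed genes ran the other way and were higher in M1 cells. Ccl22, a chemokine for CCR4, stood at 4.24, 6.06 and 4.73 TPM in the M1 libraries, against 0 TPM in all 3 M2 libraries. Il1rn, the IL-1 receptor antagonist, stood at 331, 321 and 307 TPM in the M1 libraries, against 0.63, 0.36 and 0.39 TPM in the M2 libraries (log2 difference 7.78 ± 0.08). Il10, an anti-inflammatory cytokine, stood at 2.99, 1.91 and 1.67 TPM in the M1 libraries, against 0, 0.09 and 0.15 TPM in the M2 libraries. Myc averaged 58.6 ± 2.54 TPM in M1 cells and 14.6 ± 0.922 TPM in M2 cells. Egr2 averaged 3.6 ± 0.218 TPM in M1 cells and 0.743 ± 0.14 TPM in M2 cells. Of the markers of the M2 state, Arg1, Irf4 and Pdcd1lg2 were thus present in the M2 libraries, and Chil3, Retnla, Ccl17 and Ccl24 were not or barely detected.

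**Figure D3:**
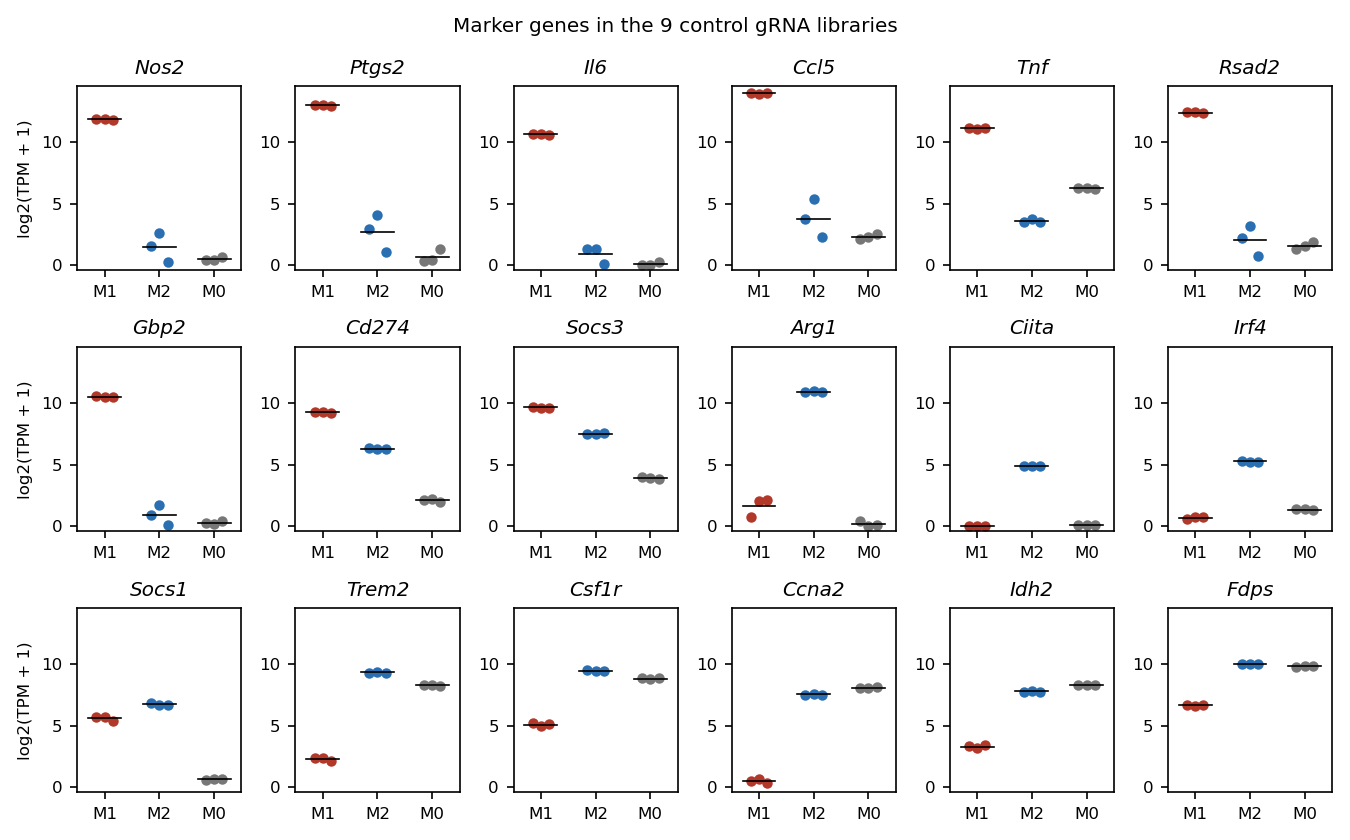
Each point is 1 control library in log2(TPM + 1), with M1 at the left, M2 in the middle and unstimulated M0 at the right of each panel, and black lines mark means of 3 libraries. M1 and M2 points do not overlap in any of the 18 panels. The same holds for 90.3% of all tested genes, and the genes named as largest rises or falls had to meet it. For the first 7 genes M2 and M0 lie low or below M1, and for Trem2, Csf1r, Ccna2, Idh2 and Fdps M2 and M0 lie together above M1.

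Genes answering to interferon were higher in M1 cells as whole lists. All 46 tested antiviral interferon-stimulated genes were at least 2-fold higher in M1 cells, with a median log2 difference of 4.44 as deposited and 4.90 under TMM factors. Rsad2, which encodes the antiviral enzyme viperin, had the largest log2 rise among genes with 5 TPM or more in M1 cells, at 5291, 5257 and 4966 TPM in the M1 libraries, against 3.59, 8.01 and 0.69 TPM in the M2 libraries (log2 difference 10.29 ± 0.42, adjusted p = 1.91e-11). That difference was 10.86 without M2 replicate 2 and 9.65 without M2 replicate 3. Its neighbour on chromosome 12, the nucleotide kinase gene Cmpk2, stood at 1739, 1686 and 1653 TPM in the M1 libraries, against 1.36, 2.95 and 0.62 TPM in the M2 libraries. Isg15, a ubiquitin-like modifier, averaged 3862 ± 25.9 TPM in M1 cells and 8.53 ± 2.35 TPM in M2 cells (log2 difference 8.69 ± 0.20). Ifit3, which encodes an RNA-binding effector, averaged 871 ± 15.2 TPM in M1 cells and 1.21 ± 0.767 TPM in M2 cells. For these 4 genes the unstimulated level was of the order of the M2 level, with Isg15 at 13.7, 11.7 and 9.51 TPM in the unstimulated libraries.

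All 20 tested guanylate-binding and immunity-related GTPases, which act on the vacuoles that hold pathogens, were at least 2-fold higher, with a median log2 difference of 6.65. Gbp2b stood at 1681, 1670.5 and 1590.1 TPM in the M1 libraries, against 1.14, 2.64 and 0.03 TPM in the M2 libraries. Gbp2 stood at 1455, 1420.1 and 1370.3 TPM in the M1 libraries, against 0.85, 2.33 and 0.08 TPM in the M2 libraries. Gbp5 stood at 903, 953 and 916 TPM in the M1 libraries, against 0.4, 1.0 and 0 TPM in the M2 libraries. Iigp1 stood at 872, 854 and 796 TPM in the M1 libraries, against 0.62, 1.07 and 0 TPM in the M2 libraries. For each of these named GTPases M2 replicate 2 was the highest and M2 replicate 3 the lowest M2 library. The median over M1-state genes given above had the same order. These GTPases themselves meet the rule for that gene set, so the match is not independent. Gbp2b and Gbp2, and Iigp1 and its relatives, are close paralogs, and how reads that fit several of them were divided is not given in the sources used here.

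The 250 bases before the gene start are shown for Rsad2 and Gbp5 because their letters hold the core of the interferon-stimulated response element, searched as 2 copies of GAAA with any 2 bases between. Cxcl2, described below, is shown for the NF-κB site, searched as GGG and TTTCC with any 2 bases between. Sequences are from RefSeq GRCm38.p6, written 5′ to 3′ on the gene's strand in lower case, and capitals mark every match to one of 8 searched motifs on either strand. The Rsad2 sequence lies at chr12:26456453-26456702, minus strand, the Cxcl2 sequence at chr5:90903649-90903898, plus strand and the Gbp5 sequence at chr3:142496684-142496933, plus strand. Rsad2 and Cxcl2 were the first among the 12 largest rises to have a match, and Gbp5 was added after its letters were seen.
Rsad2: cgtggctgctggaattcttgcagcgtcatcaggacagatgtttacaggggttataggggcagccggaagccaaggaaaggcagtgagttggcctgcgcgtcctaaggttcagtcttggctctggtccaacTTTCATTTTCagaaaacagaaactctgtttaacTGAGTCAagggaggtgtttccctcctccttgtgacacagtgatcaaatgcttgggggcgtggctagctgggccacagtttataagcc
Cxcl2: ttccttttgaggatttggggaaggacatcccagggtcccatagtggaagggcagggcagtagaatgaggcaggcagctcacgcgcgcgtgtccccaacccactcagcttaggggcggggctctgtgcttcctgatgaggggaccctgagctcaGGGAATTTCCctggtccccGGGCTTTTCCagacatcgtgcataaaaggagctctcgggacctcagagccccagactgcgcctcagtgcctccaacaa
Gbp5: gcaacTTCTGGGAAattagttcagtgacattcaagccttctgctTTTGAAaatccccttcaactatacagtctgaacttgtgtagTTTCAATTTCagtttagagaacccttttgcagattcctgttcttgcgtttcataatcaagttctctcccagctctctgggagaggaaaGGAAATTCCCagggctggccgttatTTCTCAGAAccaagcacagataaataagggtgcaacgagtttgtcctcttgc
In Rsad2 the response element core stands at −120 to −111 before the start and an AP-1 site (TGANTCA) at −87 to −81. Cxcl2 holds NF-κB sites at −97 to −88 and −78 to −69. Gbp5 holds a gamma-activated site, TTCNNNGAA, at −245 to −237 and another at −52 to −44, the response element core at −165 to −156 and an NF-κB site at −77 to −68.

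Over all genes, 9241 of the 11548 tested had a RefSeq promoter, taking the first listed start of a gene with several. The response element core was present in 2.9% of them, in 8.02% of the genes at least 2-fold higher in M1 cells and in 2.0% of those at least 2-fold lower. It was present in 10 of 11 guanylate-binding and immunity-related GTPase promoters (90.9%) and in 12 of 36 antiviral interferon-stimulated ones (33.3%). The NF-κB site was present in 1.47% of all, 2.91% of the higher and 1.16% of the lower genes, and in 6 of 23 promoters of NF-κB subunits and feedback genes (26.1%). The AP-1 site was present in 4.46% of all, 8.37% of the higher and 4.28% of the lower genes. The gamma-activated site and the STAT6-type site (TTC and GAA with any 4 bases between) differed less between all higher and all lower genes. The first was at 6.14% of all, 7.75% of the higher and 6.7% of the lower genes, and the second at 4.65%, 4.41% and 5.68%. By list, the gamma-activated site was present in 6 of 11 GTPase promoters (54.5%) and 5 of 36 antiviral interferon-stimulated ones (13.9%). It was present in 5 of 23 promoters of NF-κB subunits and feedback genes (21.7%). The STAT6-type site was present in 3 of 18 promoters of M2-associated genes (16.7%). A match is a description of letters in this window and not evidence of binding.

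Targets of NF-κB and the secreted signals were mostly higher in M1 cells. Of 26 tested NF-κB subunits and feedback genes 18 were at least 2-fold higher and 0 lower by that much (median log2 difference 1.77). Traf1, an adaptor of TNF receptors, averaged 371 ± 3.89 TPM in M1 cells and 1.25 ± 0.528 TPM in M2 cells. Nfkbiz, a nuclear IκB protein, averaged 215 ± 1.94 TPM in M1 cells and 2.21 ± 0.303 TPM in M2 cells. Sqstm1, an autophagy receptor that also scaffolds NF-κB signalling, averaged 3588 ± 88.9 TPM in M1 cells and 266 ± 8.66 TPM in M2 cells. The subunit gene Nfkb1 was close to equal, at 200.4 ± 3.31 TPM in M1 cells and 276 ± 6.17 TPM in M2 cells, with a log2 difference of −0.46 as deposited and 0.01 under TMM factors.

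Among chemokines 13 of 16 tested were at least 2-fold higher and 1 was lower (median log2 difference 5.10). Ccl5, which draws T cells and monocytes, was the second most abundant gene among the largest differences, at 15301, 15220 and 15345 TPM in the M1 libraries, against 12.5, 39.6 and 3.82 TPM in the M2 libraries (log2 difference 10.11 ± 0.55, 10.89 without M2 replicate 2 and 9.35 without M2 replicate 3). Cxcl2, a neutrophil attractant, stood at 3325, 3265 and 3420.1 TPM in the M1 libraries, against 2.55, 2.83 and 0.64 TPM in the M2 libraries (log2 difference 10.21 ± 0.26). Ccl3 averaged 9401 ± 189 TPM in M1 cells and 61.6 ± 4.69 TPM in M2 cells. Cxcl10, a ligand of CXCR3, averaged 942 ± 13.2 TPM in M1 cells and 7.10 ± 0.164 TPM in M2 cells. Cxcl11, another, averaged 314 ± 7.44 TPM in M1 cells and 1.51 ± 0.315 TPM in M2 cells. The receptors divided, with 8 of 16 tested at least 2-fold higher and 5 lower. Ccrl2, an atypical receptor that binds chemerin, averaged 567 ± 1.53 TPM in M1 cells and 2.40 ± 0.293 TPM in M2 cells. Ccr2, the receptor for Ccl2 on monocytes, went the other way at 6.13, 6.93 and 6.93 TPM in the M1 libraries, against 255, 247 and 256 TPM in the M2 libraries. So did Cxcr4, at 1.5, 1.12 and 1.97 TPM in the M1 libraries, against 67.2, 66.0 and 64.9 TPM in the M2 libraries. Gpr183, an oxysterol receptor gene, stood at 5.02, 5.02 and 5.18 TPM in the M1 libraries, against 164, 169 and 161 TPM in the M2 libraries. M0 cells held Ccr2 at 101.3 ± 5.66 TPM and Cxcr4 at 3.11 ± 0.132 TPM, so Ccr2 in M2 cells was above the unstimulated level and in M1 cells below it.

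Interleukins, growth factors and their antagonists were higher by at least 2-fold for 23 of 31 tested genes and lower for 3 (median log2 difference 2.87). Csf3, the neutrophil growth factor G-CSF, stood at 1503, 1504 and 1557 TPM in the M1 libraries, against 1.30, 0.66 and 0 TPM in the M2 libraries. Il27, a subunit of the cytokine IL-27, averaged 1030.3 ± 20.5 TPM in M1 cells and 1.35 ± 1.06 TPM in M2 cells. Il1b averaged 337 ± 14.2 TPM in M1 cells and 0.913 ± 0.456 TPM in M2 cells. In the TNF and TNF receptor superfamily 12 of 23 were at least 2-fold higher and 3 lower. Cd40, a receptor for T cell help, averaged 941 ± 19.9 TPM in M1 cells and 27.7 ± 1.92 TPM in M2 cells. Tnfrsf9 averaged 40.3 ± 1.12 TPM in M1 cells and 0.16 ± 0.191 TPM in M2 cells. Ltb, which encodes lymphotoxin β, differed in another way. It stood at 82.9, 83.8 and 86.6 TPM in the M1 libraries, against 0.77, 1.76 and 0.81 TPM in the M2 libraries, but at 124, 139 and 128 TPM in the unstimulated libraries, so that M2 cells lay far below the unstimulated level and M1 cells moderately below it.

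**Figure D4:**
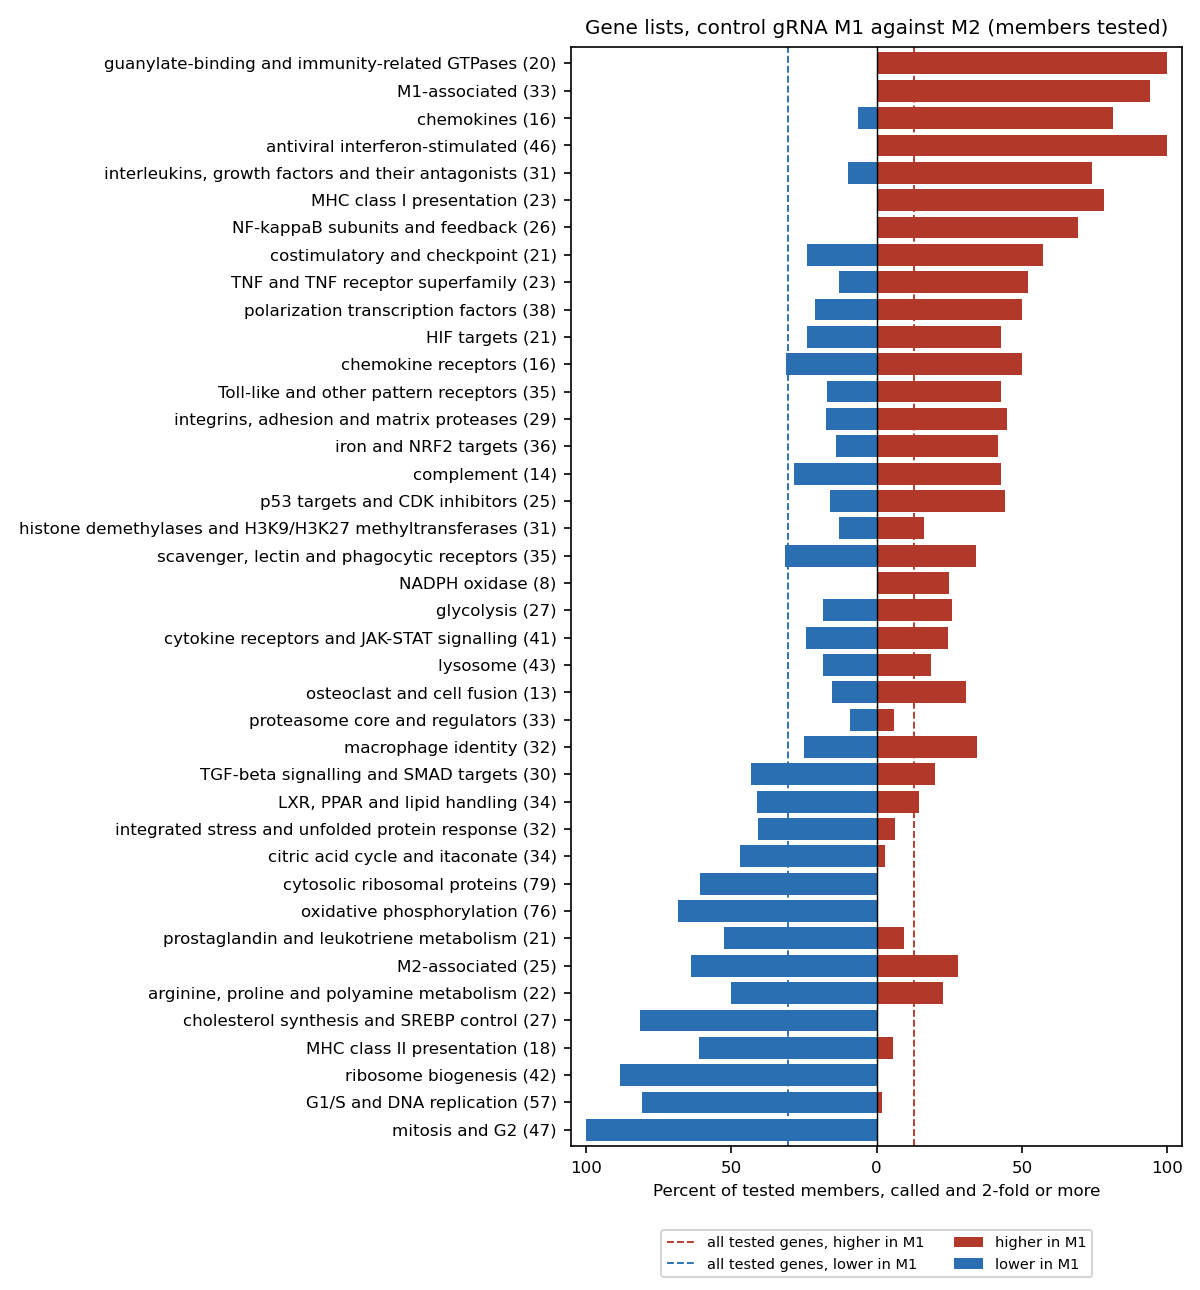
Share of the tested members of each gene list (number in brackets) that were called and at least 2-fold higher (red, right) or lower (blue, left) in M1 than in M2 cells. Dashed lines give the same shares over all tested genes, 12.7% and 30.4%, and lists are ordered by their median log2 difference, from guanylate-binding and immunity-related GTPases at the top to mitosis at the bottom.

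Receptors and the intracellular relay held genes of both directions. Of 41 cytokine receptor and JAK-STAT genes 10 were at least 2-fold higher and 10 lower (median log2 difference 0.16). These are 24.4% each, against 12.7% higher and 30.4% lower of all tested genes. Under TMM factors 12 were higher (29.3%) and 6 lower (14.6%), against 19.8% and 20.5%. Il15ra averaged 148 ± 4.48 TPM in M1 cells and 7.67 ± 0.785 TPM in M2 cells. Stat2, a subunit of the type I interferon transcription complex, averaged 426 ± 7.0 TPM in M1 cells and 29.2 ± 0.924 TPM in M2 cells. Socs3, an inhibitor of the IL-6 and G-CSF receptors, stood at 823, 779 and 771 TPM in the M1 libraries, against 177, 180.1 and 186 TPM in the M2 libraries (log2 difference 2.12 ± 0.05). Cish and Socs1 were lower in M1 cells. Cish, a STAT-induced inhibitor, stood at 33.6, 34.2 and 34.5 TPM in the M1 libraries, against 144, 134 and 133 TPM in the M2 libraries (log2 difference −1.98 ± 0.06). Socs1, an inhibitor of JAK kinases, stood at 50.7, 50.9 and 40.8 TPM in the M1 libraries, against 111, 103 and 102 TPM in the M2 libraries (log2 difference −1.14 ± 0.10). All of these were far lower in unstimulated cells, with Socs1 at 0.52, 0.61 and 0.57 TPM in the unstimulated libraries, so both polarized states lay above it, at unequal levels. The IFN-γ receptor subunit gene Ifngr2 was within 1.5-fold, at 103 ± 2.09 TPM in M1 cells and 101.5 ± 4.0 TPM in M2 cells, and so was Stat6, at 160.2 ± 1.08 TPM in M1 cells and 130.3 ± 3.18 TPM in M2 cells, although TMM factors gave log2 differences of 0.50 and 0.77.

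Transcription factors linked to polarization were higher for 19 of 38 tested genes and lower for 8, both by at least 2-fold (median log2 difference 1.18). Irf7, the amplifier of type I interferon genes, averaged 2243 ± 8.12 TPM in M1 cells and 17.7 ± 2.18 TPM in M2 cells. Irf1, an early interferon-induced transcription factor, averaged 763 ± 15.2 TPM in M1 cells and 25.4 ± 1.45 TPM in M2 cells. Batf2 averaged 245 ± 7.61 TPM in M1 cells and 1.80 ± 0.301 TPM in M2 cells. On the M2 side stood Irf4 and Klf4, given above.

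Antigen presentation divided by class. Of 23 tested MHC class I presentation genes 18 were at least 2-fold higher in M1 cells and 0 lower by that much (median log2 difference 2.36). Nlrc5, the class I transactivator, averaged 131 ± 4.59 TPM in M1 cells and 6.64 ± 0.131 TPM in M2 cells (log2 difference 4.11 ± 0.07). Tap1, a subunit of the peptide transporter, averaged 401 ± 2.67 TPM in M1 cells and 23.6 ± 1.74 TPM in M2 cells. H2-T23, a non-classical class I gene with close paralogs, averaged 925 ± 18.7 TPM in M1 cells and 55.1 ± 4.64 TPM in M2 cells. H2-T22, another, averaged 122 ± 11.1 TPM in M1 cells and 10.1 ± 3.21 TPM in M2 cells. Class II went the other way, with 11 of 18 tested genes at least 2-fold lower in M1 cells and 1 higher (median log2 difference −2.16). Ciita, the class II transactivator, stood at 0.04, 0.04 and 0.02 TPM in the M1 libraries, against 28.0, 29.2 and 27.8 TPM in the M2 libraries (log2 difference −4.83 ± 0.07, adjusted p = 3.86e-22) and at 0.07, 0.08 and 0.06 TPM in the unstimulated libraries. H2-Aa, a class II α chain gene, stood at 0.09, 0.1 and 0 TPM in the M1 libraries, against 10.5, 9.89 and 8.87 TPM in the M2 libraries. March1, a ubiquitin ligase that removes class II from the surface, stood at 0.25, 0.29 and 0.33 TPM in the M1 libraries, against 13.4, 14.1 and 14.1 TPM in the M2 libraries. Ifi30, a lysosomal thiol reductase, averaged 130.3 ± 7.29 TPM in M1 cells and 949 ± 8.43 TPM in M2 cells. The single higher member was Ctsl, a protease that also appears below. Cd74, the invariant chain, was alike at 837 ± 20.2 TPM in M1 cells and 867 ± 40.5 TPM in M2 cells, a log2 difference of −0.05 (95% interval −0.13 to 0.04) that became 0.42 under TMM factors.

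Of 21 tested costimulatory and checkpoint genes 12 were at least 2-fold higher (57.1%) and 5 lower (23.8%), against 12.7% and 30.4% of all tested. Cd86, a ligand of CD28, averaged 219 ± 8.31 TPM in M1 cells and 5.36 ± 0.573 TPM in M2 cells. Cd80, the other ligand, averaged 104 ± 4.13 TPM in M1 cells and 0.807 ± 0.0379 TPM in M2 cells. Slamf7 stood at 395, 420.5 and 384 TPM in the M1 libraries, against 0.2, 0.62 and 0.02 TPM in the M2 libraries. The ligands of PD-1 separated the states in opposite directions, since Cd274, which encodes PD-L1, averaged 595 ± 14.1 TPM in M1 cells and 76.2 ± 2.52 TPM in M2 cells while Pdcd1lg2 was found almost solely in M2 cells. Cd274 was at 3.39, 3.71 and 3.0 TPM in the unstimulated libraries, so M2 cells were also above the unstimulated level.

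Surface receptors of the macrophage were rearranged and not uniformly lost. Among 32 tested macrophage identity genes 11 were at least 2-fold higher in M1 cells (34.4%) and 8 lower (25.0%), against 12.7% and 30.4% of all tested genes. The median log2 difference was −0.11 as deposited and 0.36 under TMM factors, so the median has no firm sign. Csf1r, the receptor for the lineage growth factor M-CSF, stood at 35.3, 30.2 and 33.2 TPM in the M1 libraries, against 712, 681 and 665 TPM in the M2 libraries (log2 difference −4.34 ± 0.05). Trem2, a lipid-sensing receptor, stood at 4.29, 4.10 and 3.40 TPM in the M1 libraries, against 622, 635 and 620.0 TPM in the M2 libraries (log2 difference −6.99 ± 0.09), and both genes were also high in unstimulated cells, at 443 ± 9.44 TPM and 303 ± 3.96 TPM. Mpeg1, a pore-forming protein of phagosomes, ran the other way at 1434, 1439.5 and 1408 TPM in the M1 libraries, against 59.7, 63.1 and 59.1 TPM in the M2 libraries, with 382 ± 5.44 TPM in unstimulated cells. Scavenger, lectin and phagocytic receptors were higher for 12 of 35 and lower for 11, both by at least 2-fold, and for 16 and 9 under TMM factors. Clec4e, the Mincle receptor, averaged 1018 ± 17.4 TPM in M1 cells and 18.8 ± 2.42 TPM in M2 cells. Fcgr4 averaged 469.9 ± 13.3 TPM in M1 cells and 15.4 ± 1.5 TPM in M2 cells. Siglec1 averaged 78.1 ± 2.17 TPM in M1 cells and 2.08 ± 0.299 TPM in M2 cells. Fcgr3 was within 1.5-fold, at 143 ± 4.30 TPM in M1 cells and 188 ± 4.51 TPM in M2 cells, under TPM as deposited (log2 difference −0.39) and under TMM factors (0.08).

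Among Toll-like and other pattern receptors 15 of 35 were at least 2-fold higher and 6 lower, and under TMM factors 21 and 5. Cd14, the LPS co-receptor, averaged 2565 ± 41.7 TPM in M1 cells and 184 ± 1.01 TPM in M2 cells. Tlr3, a sensor of double-stranded RNA, averaged 157 ± 4.21 TPM in M1 cells and 7.67 ± 0.0929 TPM in M2 cells. Casp4, which binds intracellular LPS, averaged 466 ± 6.65 TPM in M1 cells and 11.6 ± 1.09 TPM in M2 cells. Of 14 complement genes 6 were at least 2-fold higher (42.9%) and 4 lower (28.6%), against 12.7% and 30.4% of all tested genes. Cfb, factor B, averaged 422 ± 5.28 TPM in M1 cells and 2.35 ± 0.33 TPM in M2 cells. Integrins, adhesion genes and matrix proteases were higher for 13 of 29 and lower for 5. Serpinb2, a plasminogen activator inhibitor, stood at 43.7, 47.4 and 44.2 TPM in the M1 libraries, against 0.05, 0.06 and 0 TPM in the M2 libraries. Itgb7 averaged 136 ± 2.06 TPM in M1 cells and 7.23 ± 0.0902 TPM in M2 cells, and Itgb5 was lower at 6.41 ± 0.49 TPM in M1 cells and 143 ± 3.90 TPM in M2 cells.

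Of 30 tested genes linked to TGF-β, which the M2 mixture contains, 13 were at least 2-fold lower in M1 cells (43.3%) and 6 higher (20.0%). Of all tested genes 30.4% were lower and 12.7% higher by that much. Under TMM factors 10 were lower (33.3%) and 8 higher (26.7%), against 20.5% and 19.8%. The log2 differences ran from −5.58 to 6.24, so the largest was of a gene higher in M1 cells. Summed over the list, M1 cells held 4557.5 ± 33.0 TPM and M2 cells 1534 ± 26.3 TPM. The genes named below were all lower in M1 cells. The list median of −0.33 became 0.05 under TMM factors. The SMAD target and inhibitor Pmepa1 stood at 0.34, 0.62 and 0.31 TPM in the M1 libraries, against 68.4, 65.6 and 67.0 TPM in the M2 libraries (log2 difference −5.58 ± 0.09). Id1, a SMAD target and inhibitor of basic helix-loop-helix factors, stood at 4.39, 4.75 and 5.35 TPM in the M1 libraries, against 153, 161 and 167 TPM in the M2 libraries. Klf10 stood at 1.21, 0.72 and 1.25 TPM in the M1 libraries, against 37.4, 35.9 and 36.8 TPM in the M2 libraries.

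Arginine, proline and polyamine metabolism was split around its central pair. Of 22 tested genes 5 were at least 2-fold higher in M1 cells and 11 lower (median log2 difference −1.43). Srm, spermidine synthase, stood at 3.44, 4.15 and 3.12 TPM in the M1 libraries, against 226, 207 and 222 TPM in the M2 libraries. Gatm, which uses arginine to make creatine precursor, stood at 12.01, 11.8 and 14.48 TPM in the M1 libraries, against 628, 629 and 636 TPM in the M2 libraries. M0 cells held Srm at 305 ± 8.70 TPM and Gatm at 151 ± 5.84 TPM. In prostaglandin and leukotriene metabolism 2 of 21 genes were at least 2-fold higher and 11 lower (median log2 difference −1.32). The isoenzymes were exchanged, since Ptgs2 was high in M1 cells while Ptgs1, the constitutive cyclooxygenase, stood at 0.1, 0.15 and 0.11 TPM in the M1 libraries, against 62.8, 58.0 and 58.4 TPM in the M2 libraries. Ltb4r1, a leukotriene B4 receptor, stood at 0.61, 0.62 and 0.82 TPM in the M1 libraries, against 98.3, 106 and 94.5 TPM in the M2 libraries. Ltc4s, leukotriene C4 synthase, stood at 0.18, 0.6 and 0.95 TPM in the M1 libraries, against 56.9, 50.4 and 50.8 TPM in the M2 libraries.

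Anxa8, a calcium-dependent membrane-binding annexin, was near absent outside M2 cells. It stood at 0.05, 0.24 and 0.23 TPM in the M1 libraries, against 148, 161 and 162 TPM in the M2 libraries (log2 difference −7.08 ± 0.10, adjusted p = 1.12e-22) and at 0 TPM in all 3 unstimulated libraries, the largest fall after Arg1. Odf3l1 was also higher in M2 than in unstimulated cells, at 0.8, 1.02 and 0.78 TPM in the M1 libraries, against 162, 155 and 149.6 TPM in the M2 libraries and 32.0, 31.4 and 26.4 TPM in the unstimulated libraries. These falls differ in kind from those of the cell cycle, where the unstimulated level was near the M2 level or above it.

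Mitosis was the only list with every tested member at least 2-fold lower, under TPM as deposited. All 47 tested mitosis and G2 genes were at least 2-fold lower in M1 cells (44 of 47 under TMM factors), with a median log2 difference of −4.55. Ccna2, cyclin A2, stood at 0.41, 0.59 and 0.31 TPM in the M1 libraries, against 181, 184 and 181 TPM in the M2 libraries (log2 difference −7.00 ± 0.07, adjusted p = 2.71e-24). Ube2c, a ubiquitin-conjugating enzyme of the anaphase-promoting complex, averaged 1.70 ± 0.489 TPM in M1 cells and 261 ± 5.33 TPM in M2 cells. Birc5, survivin, averaged 1.41 ± 0.2 TPM in M1 cells and 200.4 ± 9.71 TPM in M2 cells. Plk1, a mitotic kinase, averaged 0.827 ± 0.162 TPM in M1 cells and 109.6 ± 0.5 TPM in M2 cells. Pbk averaged 0.203 ± 0.0416 TPM in M1 cells and 86.9 ± 3.13 TPM in M2 cells. Of 57 genes of G1/S and DNA replication 46 were at least 2-fold lower and 1 higher (median log2 difference −2.89). Rrm2, the small subunit of ribonucleotide reductase, averaged 0.897 ± 0.136 TPM in M1 cells and 163 ± 4.60 TPM in M2 cells. Tk1, thymidine kinase, averaged 1.01 ± 0.376 TPM in M1 cells and 159 ± 2.69 TPM in M2 cells. Mcm6, a subunit of the replicative helicase, averaged 8.13 ± 0.473 TPM in M1 cells and 277 ± 4.22 TPM in M2 cells. Apex1, a base-excision repair endonuclease outside both lists, averaged 2.46 ± 0.365 TPM in M1 cells and 312 ± 3.17 TPM in M2 cells. Mean levels in unstimulated cells were above those in M2 cells for Ccna2 (265.1 ± 9.30 TPM), Birc5 (266 ± 7.74 TPM) and Tk1 (282 ± 9.20 TPM). The difference between unstimulated and M2 cells was not tested. In bulk RNA, fewer cells in cycle and less of these transcripts per cell cannot be told apart. Among 25 p53 targets and CDK inhibitors 11 were at least 2-fold higher (44.0%) and 4 lower (16.0%). The shares over all tested genes were 12.7% and 30.4%. Mdm2, the p53 ubiquitin ligase, averaged 629 ± 11.6 TPM in M1 cells and 55.6 ± 2.33 TPM in M2 cells. The death receptor gene Fas averaged 288 ± 2.02 TPM in M1 cells and 10.8 ± 1.04 TPM in M2 cells.

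The same promoter window is shown for Anxa8 and Trem2, the first among the 12 largest falls to have a match, and for Ube2c, added after its letters were seen because it repeats the CCAAT box. The Anxa8 sequence lies at chr14:34085729-34085978, plus strand, the Trem2 sequence at chr17:48346151-48346400, plus strand and the Ube2c sequence at chr2:164769679-164769928, plus strand, all RefSeq GRCm38.p6, with capitals for motif matches as before.
Anxa8: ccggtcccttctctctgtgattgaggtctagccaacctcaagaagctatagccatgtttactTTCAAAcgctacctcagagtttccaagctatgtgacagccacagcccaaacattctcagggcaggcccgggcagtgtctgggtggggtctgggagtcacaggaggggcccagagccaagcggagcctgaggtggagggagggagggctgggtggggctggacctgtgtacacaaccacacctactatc
Trem2: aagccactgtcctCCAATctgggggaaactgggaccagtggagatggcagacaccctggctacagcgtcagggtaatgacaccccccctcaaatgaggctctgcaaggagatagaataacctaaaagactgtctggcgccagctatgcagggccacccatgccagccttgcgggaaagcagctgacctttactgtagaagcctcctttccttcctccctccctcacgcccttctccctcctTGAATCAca
Ube2c: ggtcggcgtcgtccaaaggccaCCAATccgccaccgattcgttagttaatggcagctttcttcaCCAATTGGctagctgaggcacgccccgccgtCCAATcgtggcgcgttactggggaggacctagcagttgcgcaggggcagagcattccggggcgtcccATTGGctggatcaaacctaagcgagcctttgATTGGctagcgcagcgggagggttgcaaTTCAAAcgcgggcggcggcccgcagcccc
Ube2c holds CCAAT boxes, on both strands, between −228 and −53 before the start and the cell cycle homology region TTTGAA, read on the other strand, at −29 to −24. Anxa8 holds that hexamer alone, at −188 to −183, and Trem2 a CCAAT box at −237 to −233 and an AP-1 site at −9 to −3. The CCAAT box was present in 31 of 40 mitosis and G2 promoters (77.5%), in 28 of 46 of G1/S and DNA replication (60.9%) and in 17 of 20 of cholesterol synthesis and SREBP control (85%), against 37.5% of all tested genes. It was also present in 15 of 20 MHC class I presentation promoters (75.0%), a list that was higher in M1 cells. It was present in 34.5% of the genes at least 2-fold higher and 41.9% of those at least 2-fold lower in M1 cells. The hexamer was present in 15 of 40 mitosis and G2 promoters (37.5%) and in 5 of 11 guanylate-binding and immunity-related GTPase promoters (45.5%), against 11.0% of all tested genes. The E2F-type site TTTNGCGC was present in 5 of 46 G1/S and DNA replication promoters (10.9%) and in 3 of 20 MHC class I presentation promoters (15%), against 2.25% of all tested genes.

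Lists of growth and energy metabolism differed in how far their lower levels in M1 cells depended on scaling. Among 42 tested genes of ribosome biogenesis 37 were at least 2-fold lower and 0 higher (median log2 difference −2.20; 33 lower, 78.6%, under TMM factors). Dkc1, the pseudouridine synthase dyskerin, averaged 3.24 ± 0.326 TPM in M1 cells and 78.5 ± 0.37 TPM in M2 cells. Rrs1 averaged 14.9 ± 1.17 TPM in M1 cells and 158 ± 3.35 TPM in M2 cells. Of 79 cytosolic ribosomal protein genes 48 were at least 2-fold lower as deposited. Under TMM factors 12 were (15.2%), a smaller share than the 20.5% of all tested genes, and the median log2 difference was −1.09 as deposited and −0.62 under TMM factors. Rpl3 averaged 591 ± 8.07 TPM in M1 cells and 2563 ± 36.9 TPM in M2 cells. Eef1a1, an elongation factor, averaged 4109.6 ± 184 TPM in M1 cells and 14236 ± 409.9 TPM in M2 cells. Many ribosomal protein genes have processed pseudogenes that can share their reads. Among the integrated stress and unfolded protein response genes 13 of 32 were at least 2-fold lower and 2 higher as deposited. Under TMM factors 7 were lower (21.9%) and 5 higher, a share lower near the background. Shmt2, of mitochondrial serine metabolism, averaged 32.7 ± 3.52 TPM in M1 cells and 503 ± 14.3 TPM in M2 cells. Ppp1r15a, the stress phosphatase subunit GADD34, averaged 258 ± 1.88 TPM in M1 cells and 22.2 ± 1.01 TPM in M2 cells. Few proteasome genes reached 2-fold, with 2 of 33 higher and 3 lower as deposited and 3 and 0 under TMM factors. The median log2 difference of that list was −0.02 as deposited and 0.46 under TMM factors. Psma2, a core subunit, averaged 404 ± 6.43 TPM in M1 cells and 409 ± 3.56 TPM in M2 cells, alike as deposited and with a log2 difference of 0.46 under TMM factors.

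Of 76 tested oxidative phosphorylation genes 52 were at least 2-fold lower and 0 higher, with a median log2 difference of −1.27, and under TMM factors 22 were lower (28.9%) with a median of −0.80. Atp5g1, a subunit c gene of ATP synthase, averaged 43.7 ± 3.35 TPM in M1 cells and 392 ± 3.19 TPM in M2 cells. Uqcr11, of complex III, averaged 74.6 ± 3.51 TPM in M1 cells and 406 ± 8.84 TPM in M2 cells. In the citric acid cycle and itaconate list 16 of 34 were at least 2-fold lower and 1, Irg1, higher as deposited, and 10 and 1 under TMM factors. Idh2, mitochondrial isocitrate dehydrogenase, stood at 9.11, 8.09 and 9.49 TPM in the M1 libraries, against 214, 219 and 212 TPM in the M2 libraries (log2 difference −4.45 ± 0.07). Idh3a averaged 22.4 ± 2.32 TPM in M1 cells and 179.6 ± 9.78 TPM in M2 cells. Of 27 tested glycolysis genes 7 were at least 2-fold higher (25.9%) and 5 lower (18.5%), against 12.7% and 30.4% of all tested genes. Under TMM factors 10 were higher (37.0%) and 5 lower (18.5%), against 19.8% and 20.5%. Pfkfb3, which makes the activator of phosphofructokinase, averaged 385 ± 8.07 TPM in M1 cells and 32.1 ± 1.52 TPM in M2 cells. Hk3, a hexokinase, averaged 554 ± 8.85 TPM in M1 cells and 77.1 ± 1.27 TPM in M2 cells. Slc2a1, the glucose transporter GLUT1, averaged 1174 ± 15.5 TPM in M1 cells and 254 ± 6.29 TPM in M2 cells. The muscle enolase gene Eno3 was lower, at 2.37 ± 0.501 TPM in M1 cells and 34.1 ± 0.419 TPM in M2 cells.

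Sterol synthesis was mostly lower. Of 27 tested cholesterol synthesis and SREBP control genes 22 were at least 2-fold lower and 0 higher (median log2 difference −1.70; 19 lower and 1 higher under TMM factors). Fdps, farnesyl diphosphate synthase, stood at 98.9, 97.2 and 103 TPM in the M1 libraries, against 1014, 1034 and 1017 TPM in the M2 libraries (log2 difference −3.35 ± 0.03). Mvd averaged 11.9 ± 0.984 TPM in M1 cells and 144 ± 2.53 TPM in M2 cells. Dhcr7, the last enzyme of the pathway, averaged 5.25 ± 0.0351 TPM in M1 cells and 68.7 ± 1.53 TPM in M2 cells. Among LXR, PPAR and lipid handling genes 14 of 34 were at least 2-fold lower (41.2%) and 5 higher (14.7%) as deposited. Of all tested genes 30.4% were lower and 12.7% higher by that much. Under TMM factors 9 were lower (26.5%) and 7 higher (20.6%), against 20.5% and 19.8%. The share higher was thus near the background under both scalings. The median log2 difference of that list was −0.54 as deposited and −0.13 under TMM factors. Scd1, a fatty acid desaturase, averaged 8.15 ± 0.234 TPM in M1 cells and 218 ± 4.14 TPM in M2 cells. Pltp, phospholipid transfer protein, averaged 20.6 ± 2.94 TPM in M1 cells and 267 ± 1.11 TPM in M2 cells. Unstimulated cells were within 2-fold of M2 cells for Fdps, at 883 ± 14.2 TPM, and Scd1, at 157 ± 2.27 TPM.

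Iron and oxidant handling was higher for 15 of 36 tested genes and lower for 5. Fth1, ferritin heavy chain, was the most abundant gene among the largest differences, at 24612, 25132 and 25416 TPM in the M1 libraries, against 2016, 2046 and 2031 TPM in the M2 libraries (log2 difference 3.62 ± 0.04), and at 4735, 4879 and 4437 TPM in the unstimulated libraries. Lcn2, which binds bacterial siderophores, stood at 814, 873 and 877 TPM in the M1 libraries, against 0.51, 0.27 and 0 TPM in the M2 libraries. Slc40a1, the iron exporter ferroportin, stood at 19.5, 21.7 and 21.5 TPM in the M1 libraries, against 0.15, 0.22 and 0.25 TPM in the M2 libraries. Hamp, which encodes its ligand hepcidin, stood at 27.3, 24.9 and 20.8 TPM in the M1 libraries, against 0 TPM in all 3 M2 libraries. Prdx1, a peroxidase induced by NRF2, averaged 7417 ± 156 TPM in M1 cells and 727 ± 8.67 TPM in M2 cells. Gpx1, glutathione peroxidase, was lower at 318 ± 11.0 TPM in M1 cells and 2761 ± 17.7 TPM in M2 cells. Of 8 tested NADPH oxidase genes 2 were at least 2-fold higher as deposited and 4 under TMM factors. Cybb, the catalytic subunit, averaged 1125 ± 9.19 TPM in M1 cells and 177 ± 0.965 TPM in M2 cells. HIF targets were higher for 9 of 21 and lower for 5, and for 13 and 4 under TMM factors. Vegfa, the angiogenic growth factor gene, averaged 348 ± 8.99 TPM in M1 cells and 42.2 ± 2.43 TPM in M2 cells. Adm averaged 91.5 ± 4.60 TPM in M1 cells and 6.26 ± 0.181 TPM in M2 cells. Lysosomal genes were higher for 8 of 43 and lower for 8, 18.6% each, against 12.7% and 30.4% of all tested genes. Under TMM factors 16 were higher (37.2%) and 4 lower (9.3%), against 19.8% and 20.5%. Ctsl, a cysteine protease, averaged 1079 ± 11.7 TPM in M1 cells and 186 ± 3.30 TPM in M2 cells. Lipa, lysosomal acid lipase, was within 1.5-fold at 405 ± 5.92 TPM in M1 cells and 520.1 ± 6.82 TPM in M2 cells (log2 difference −0.36 as deposited and 0.11 under TMM factors).

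In level rather than fold, the 6 genes furthest above in M1 cells were Ptgs2, Ccl5, Fth1, Ccl3, Spp1 and Prdx1, and the 6 furthest above in M2 cells were Eef1a1, Ptma, S100a4, Ppia, Gpx1 and Rpl7. Spp1, osteopontin, averaged 10799 ± 359 TPM in M1 cells and 1746 ± 35.4 TPM in M2 cells. Ptma, prothymosin α, averaged 644 ± 9.25 TPM in M1 cells and 6660 ± 270.2 TPM in M2 cells. S100a4, a calcium-binding protein, averaged 236 ± 19.7 TPM in M1 cells and 5374 ± 87.6 TPM in M2 cells. The M2-side genes, other than Gpx1, were as high or higher in unstimulated cells, with S100a4 at 6323 ± 477 TPM and Ptma at 7945 ± 166 TPM.

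The histone demethylases and H3K9 and H3K27 methyltransferases include the family of the knocked-out gene. Of 31 tested 5 were at least 2-fold higher (16.1%) and 4 lower (12.9%), against 12.7% and 30.4% of all tested genes. Under TMM factors 9 were higher (29.0%) and 3 lower (9.68%), against 19.8% and 20.5%. The median log2 difference was 0.32 as deposited and 0.79 under TMM factors. Kdm7a itself had a log2 difference of 0.34 ± 0.07 (adjusted p = 1.28e-04), and its unstimulated level was 11.1 ± 0.174 TPM, below both polarized states. Suv39h1, an H3K9 methyltransferase gene, averaged 5.06 ± 0.339 TPM in M1 cells and 35.1 ± 1.54 TPM in M2 cells. Setdb2 averaged 61.0 ± 3.73 TPM in M1 cells and 14.9 ± 1.42 TPM in M2 cells. Among 13 tested osteoclast and cell fusion genes, which RAW264.7 cells can express, 4 were at least 2-fold higher and 2 lower. The fusion protein genes were on opposite sides. Dcstamp averaged 6.64 ± 0.638 TPM in M1 cells and 0.41 ± 0.18 TPM in M2 cells. Ocstamp averaged 1.84 ± 0.227 TPM in M1 cells and 14.4 ± 1.60 TPM in M2 cells.

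Genes alike in both states can be counted as well. The 95% interval of the difference lay within 1.5-fold for 3179 genes (27.5%) as deposited, and for 1810 genes (15.7%) under all 3 scalings. Of the 13 tested osteoclast genes and the 47 mitosis genes 0 met the stricter rule, and of the 33 proteasome genes 13 did.

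The unstimulated cells stood near the M2 state for most differing genes. Of the 1465 genes at least 2-fold higher in M1 cells, the M0 mean was within 2-fold of the M2 mean and nearer to it for 1263 (86.2%), within 2-fold of the M1 mean and nearer to it for 60, between the states for 56, and 2-fold or more beyond M2 for 86. Of the 3516 genes at least 2-fold lower, 3046 (86.6%) were near M2, 327 near M1, 86 between, 37 beyond M2 and 20 beyond M1. Ciita, Anxa8 and Pmepa1 belong to the 327, Arg1 to the 20, Ltb to the 60 and Tnf to the 56. These counts compare levels only, since each polarized state's own comparison with M0 uses the same 3 M0 libraries.

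Some markers of other cell types were at 0 TPM in all 6 libraries, for T cells (Cd3g, Cd8a), B cells (Ms4a1), neutrophils (S100a9, Mmp8) and epithelium (Epcam, Krt8). These were picked from longer lists after their values were seen, and other members of the lists were expressed. The 2 tested B cell genes had log2 differences of −2.20 and 1.40, and the 2 tested T and NK cell genes 0.29 and 0.69. Of the lists for T and NK cells, B cells, dendritic cells, neutrophils, and fibroblasts, epithelium and endothelium, 2 of 15, 2 of 9, 7 of 12, 2 of 11 and 1 of 16 genes in the table reached the filter. The summed level ran over 9.20 to 10.4 TPM in the M1 libraries and 5.16 to 6.74 TPM in the M2 libraries for the first list. It ran over 27.2 to 28.9 TPM in the M1 libraries and 22.3 to 23.6 TPM in the M2 libraries for B cells. It ran over 25.5 to 27.1 TPM in the M1 libraries and 15.2 to 15.7 TPM in the M2 libraries for dendritic cells. It ran over 54.6 to 63.4 TPM in the M1 libraries and 2.57 to 3.63 TPM in the M2 libraries for neutrophils, and 21.1 to 22.4 TPM in the M1 libraries and 1.21 to 1.90 TPM in the M2 libraries for the last list. The neutrophil sum in M1 cells was nearly all S100a8, at 52.9, 62.0 and 55.7 TPM in the M1 libraries, against 1.24, 2.33 and 1.45 TPM in the M2 libraries. The last sum in M1 cells was nearly all Pecam1, at 21.7, 20.5 and 20.3 TPM in the M1 libraries, against 0.47, 0.96 and 0.68 TPM in the M2 libraries. The M2 sums of these lists held other genes as well. Macrophages can express both S100a8 and Pecam1. Ccr7, a migration receptor of mature dendritic cells, stood at 11.1, 11.0 and 12.04 TPM in the M1 libraries, against 0, 0.06 and 0 TPM in the M2 libraries. Itgax, which encodes CD11c, stood at 0.11, 0.08 and 0.1 TPM in the M1 libraries, against 4.50, 5.30 and 5.44 TPM in the M2 libraries.

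The same contrast in Kdm7a knockout cells, which shares no library with the control one, gave similar counts. It called 10420 genes (90.2%), 3502 higher (30.3%) and 6918 lower (59.9%) in M1 cells. Of these 5152 differed by at least 2-fold (44.6%), 1457 higher (12.6%) and 3695 lower (32.0%). Across the 11548 tested genes the log2 differences of the lines had a Pearson r of 0.974 and a slope of 1.01, a description over genes that share libraries. Of the 4981 control calls of at least 2-fold, 4953 (99.4%) were called in the same direction in the knockout. The lists followed, with 46 of 47 mitosis genes at least 2-fold lower and 45 of 46 antiviral genes and 20 of 20 GTPases at least 2-fold higher in knockout M1 cells.

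The M1-M2 difference itself differed between the lines for 4177 genes (36.2%), but by at least 2-fold for 252 genes (2.18%), 89 higher (0.771%) and 163 lower (1.41%) in the knockout. Among these, Ccl2, the monocyte attractant, had the strongest reduction. It stood at 7.95, 10.1 and 8.64 TPM in the knockout M1 libraries, against 0, 0.26 and 0.67 TPM in the knockout M2 libraries. In control cells it stood at 107, 122 and 114 TPM in the M1 libraries, against 0, 0.14 and 0.13 TPM in the M2 libraries, a knockout minus control difference of −3.78 ± 0.18 (limma, adjusted p = 9.18e-12). Il1rn stood at 30.7, 27.9 and 30.6 TPM in the knockout M1 libraries, against 0.28, 0.17 and 0.33 TPM in the knockout M2 libraries, a difference of −3.17 ± 0.11 (adjusted p = 1.01e-13). Hbegf, an EGF family ligand, changed direction between the lines. It averaged 1.47 ± 0.359 TPM in knockout M1 cells and 15.5 ± 0.786 TPM in knockout M2 cells. In control cells it averaged 7.18 ± 0.88 TPM in M1 cells and 4.66 ± 0.267 TPM in M2 cells. Its M1-M2 log2 difference was −2.75 in the knockout and 0.53 in control cells, 0.94 there under TMM factors. Ccl22 differed in the other direction, at 46.5, 48.3 and 47.5 TPM in the knockout M1 libraries, against 0, 0.06 and 0 TPM in the knockout M2 libraries, a difference of 2.99 ± 0.13 (adjusted p = 2.22e-12). Tnfrsf9 did so too, at 236, 241 and 235 TPM in the knockout M1 libraries, against 0.19, 0 and 0 TPM in the knockout M2 libraries, a difference of 2.65 ± 0.19. P2ry12, a purinergic receptor, stood at 0, 0.05 and 0 TPM in the knockout M1 libraries, against 0.37, 0.09 and 0.17 TPM in the knockout M2 libraries. In control cells it stood at 0.24, 0.14 and 0.13 TPM in the M1 libraries, against 11.3, 12.1 and 11.0 TPM in the M2 libraries. The higher M2 level of control cells was not seen in the knockout.

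**Figure D5:**
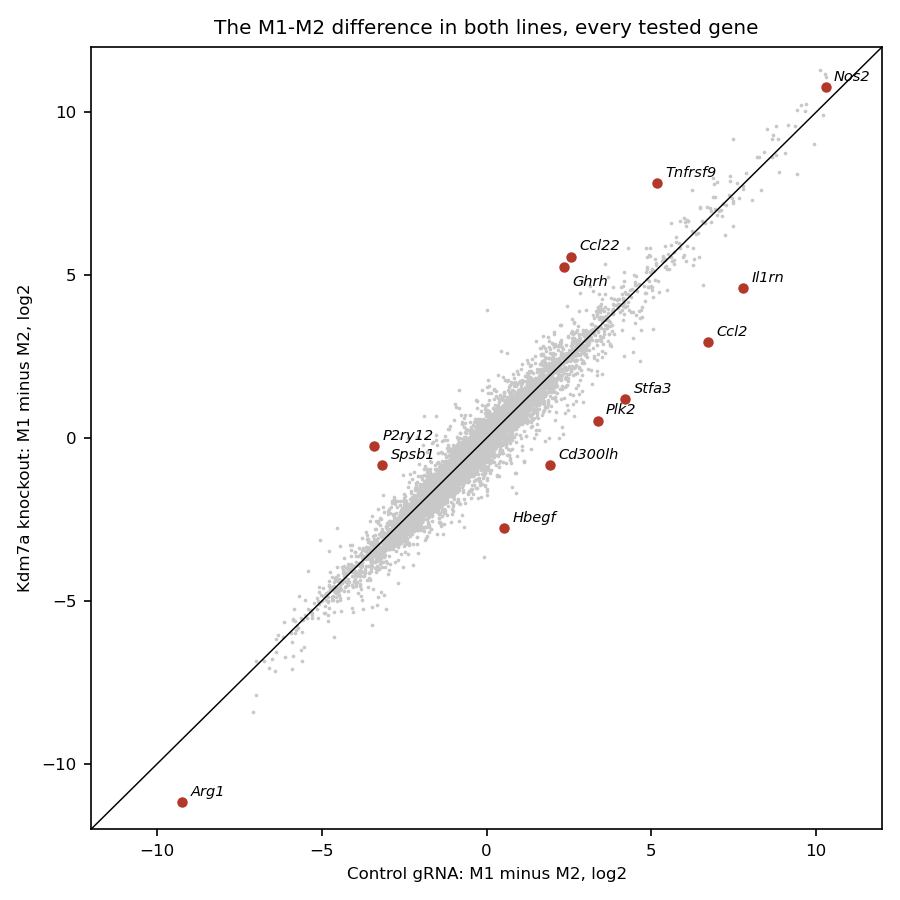
The M1 minus M2 log2 difference of every tested gene in control cells (horizontal axis) and in Kdm7a knockout cells (vertical axis), with the line of equal differences. Genes lie along the line (r = 0.974, slope 1.01), Nos2 and Arg1 at its ends, and named genes such as Ccl2, Il1rn, Hbegf, Ccl22, Tnfrsf9 and P2ry12 stand off it by more than 2 log2 units.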

How the data were processed

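RNA of 18 RAW264.7 libraries (6 groups of 3) was measured by poly(A) sequencing. The authors deposited 1 table of TPM per gene symbol, trimmed with Trim Galore and on build mm10 per the submitters' processing notes; which aligner, quantifier and annotation were used is not given in the sources used here. The 18 columns were matched to samples by library name. TPM keeps no read depth, so no counting interval is given and the number of libraries limits precision. Values were taken as log2(TPM + 1) and fitted with limma 3.58.1 (R 4.3.3), 6 group means, variance trend, robust moderation, over the genes that reached 1 TPM in 3 or more libraries, with Benjamini-Hochberg adjustment over all tested genes and a threshold of 0.05. The difference between lines was an interaction contrast in the same fit. The procedure was tested on simulated data in which few genes differed between M1 and M2. In the real data 89.4% of tested genes were called, so that test does not bear on the scaling. The alternatives were TMM and median-ratio factors computed on the TPM values, no filter, no variance trend, a 5 TPM filter, a pseudocount of 0.1, a replicate block, a fit on the compared groups alone, and leaving out each library.

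Replicate numbers are shared between groups, but same-numbered M1 and M2 libraries did not deviate together (r = −0.0899, −0.0388 and −0.0161), so they were not treated as pairs. The members, gene lists (45) and tests were chosen with earlier results of these data known. Named genes were, among called genes whose groups did not overlap and whose higher mean reached 5 TPM, the 12 that rose most and the 12 that fell most, the 6 largest TPM differences each way, 32 markers, up to 4 called members of each list with the largest log2 difference and up to 2 with the narrowest interval within 1.5-fold, and 6 genes each way for the difference between lines. The other markers of foreign cell types and the promoters of Gbp5 and Ube2c were named after their values were seen. Promoter sequences and gene positions come from RefSeq GRCm38.p6, matched by symbol or an unambiguous synonym; 8 motifs were searched on both strands in the 250 bases before the start and may overlap.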

Additional observations from a re-analysis of the deposited data

Results flagged for a closer look

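The groups hold 3 libraries each, so no library was tested for standing apart from its group. The results below were picked out because the M1-M2 difference itself differed between Kdm7a knockout and control cells in limma's interaction test, with values as knockout minus control on the log2(TPM + 1) scale. Over all tested genes 4177 differed in this way, 252 of them by at least 2-fold.

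Larger in the knockout among the genes examined were Ccl22 at 2.99, Tnfrsf9 at 2.65, Il1b at 1.70, Cxcl10 at 1.11 and Ghrh, the growth hormone-releasing hormone gene, at 2.87, all higher in M1 than in M2 cells of both lines. Cxcl10 averaged 812 ± 16.7 TPM in knockout M1 cells and 2.24 ± 0.334 TPM in knockout M2 cells, and in control cells it averaged 942 ± 13.2 TPM in M1 cells and 7.10 ± 0.164 TPM in M2 cells. Il1b stood at 810, 796 and 812 TPM in the knockout M1 libraries, against 0, 0.62 and 0.63 TPM in the knockout M2 libraries, with the control values given above. For P2ry12 at 3.17, Spsb1 at 2.33 and the small nucleolar RNA gene Snora65 at 2.38 the positive value means a smaller deficit of M1 cells. Spsb1 averaged 1.71 ± 0.327 TPM in knockout M1 cells and 3.83 ± 0.396 TPM in knockout M2 cells, and in control cells it averaged 0.603 ± 0.0451 TPM in M1 cells and 13.4 ± 1.90 TPM in M2 cells. Snora65 was at 0 TPM in all 3 knockout M1 libraries, against 0 TPM in all 3 knockout M2 libraries, and in control cells at 0 TPM in all 3 M1 libraries, against 2.27, 4.85 and 6.32 TPM in the M2 libraries. A small nucleolar RNA is not expected among poly(A) transcripts, and its control M2 libraries spread over more than 2-fold.

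Smaller in the knockout were Ccl2 at −3.78, Hbegf at −3.28, Il1rn at −3.17, Stfa3 at −3.01, Plk2 at −2.84, Cd300lh at −2.74, Tgm2 at −1.62 and Fpr2 at −1.35. Stfa3 stood at 1.17, 0.94 and 1.87 TPM in the knockout M1 libraries, against 0 TPM in all 3 knockout M2 libraries, and in control cells at 18.9, 18.8 and 15.1 TPM in the M1 libraries, against 0 TPM in all 3 M2 libraries. Plk2, a kinase gene of the stress response, stood at 0.25, 0.27 and 1.0 TPM in the knockout M1 libraries, against 0, 0 and 0.04 TPM in the knockout M2 libraries, and in control cells at 10.3, 11.0 and 10.2 TPM in the M1 libraries, against 0.07, 0.19 and 0.07 TPM in the M2 libraries. Tgm2, transglutaminase 2, averaged 44.0 ± 0.517 TPM in knockout M1 cells and 349.7 ± 35.6 TPM in knockout M2 cells, and in control cells it averaged 30.3 ± 1.39 TPM in M1 cells and 78.3 ± 7.93 TPM in M2 cells, so that the knockout had a deeper M1 deficit. Cd300lh averaged 10.8 ± 1.15 TPM in knockout M1 cells and 19.8 ± 1.95 TPM in knockout M2 cells, and in control cells it averaged 38.5 ± 1.14 TPM in M1 cells and 9.62 ± 2.15 TPM in M2 cells, so its direction also differed between the lines. Stfa3 and Cd300lh belong to gene families with close paralogs, and how shared reads were counted is not given in the sources used here. The knockout cells are labelled only by their guide, and effects of the deletion and of the line or clone cannot be told apart.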

How the results depend on the processing

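Scaling and the filter on low values moved the summaries most among the alternatives run. With TMM and median-ratio factors the genes called at least 2-fold higher in M1 cells numbered 2285 and 2257, the share of called genes that were higher became 49.97 and 49.61%, and the median log2 difference of all tested genes became −0.00773 and −0.0178. With no filter on low values that median was −0.0435, and 8331 genes had an interval within 1.5-fold, since genes near 0 in every library entered the fit. A count of genes alike under all 3 scalings, an alternative chosen after the data were seen, was 1810. Of the genes named in the text, the sign reversed under TMM and median-ratio factors for Cd74 (0.4227 and 0.4114), Fcgr3 (0.08018 and 0.06894), Lipa (0.1127 and 0.1014), Nfkb1 (0.01366 and 0.002408) and Psma2 (0.4558 and 0.4445). Among the other values of named genes 2197 kept direction and side of the threshold and 2 passed it newly. Of the list counts under both rescalings 144 stayed within 1.5 times the reported count and 36 did not. Among the 12 largest rises 9 had a promoter, and the share with the response element core there was 44.4%, against 8.02% of all genes at least 2-fold higher. Among the 12 largest falls 8 had one, and the CCAAT box share was 62.5%, against 41.9%. The cause of these changes was not tested.

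Leaving out 1 library at a time gave 10148 to 10195 genes called between M1 and M2 control cells, 4963 to 4995 by at least 2-fold (1449 to 1484 higher and 3492 to 3539 lower), a share higher of 33.61 to 34.19%, a median of −0.424 to −0.41 and 3026 to 3064 genes alike. The knockout contrast gave 10252 to 10339 calls and the difference between lines 3774 to 4520. With the replicate number as a block, the counts were 10315 and 10424 for the contrasts, 4155 for the difference between lines and 3174 genes alike, so the block moved none of these counts by 1.5 times. Same-numbered libraries did not deviate together, with r from −0.0899 to −0.0161 in control cells and from −0.0329 to 0.0252 in knockout cells. The number was therefore not used to pair them. Such small correlations over all genes cannot exclude a pairing, and the labels do not give one. TPM gives no depth, and differences in total RNA per cell cannot be seen in it.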
